A study of Mus musculus with 18 samples.

Results

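Short-term hematopoietic stem cells (ST-HSC) of adult mouse bone marrow (BM) were compared with multipotent progenitors (MPP) of the same tissue, over all genes measured. The comparison used 6 of the 18 arrays of the series, chosen by their titles: 3 of BM ST-HSC and 3 of BM MPP, lettered a, b and c in each group. Both groups came from C57Bl/6J mice aged 3 to 12 months and were sorted from the LSK fraction of the marrow, which lacks lineage markers and carries Sca-1 and Kit, by Cd150 and Cd48 staining. No source used here gives the exact gates. Further arrays served for the spread in the fit and as comparators, namely 3 of BM long-term stem cells (LT-HSC) and 3 each of ST-HSC, MPP and LT-HSC from the fetal liver (FL) of E13.5 embryos. The free-text descriptions of the BM arrays speak of transplanted animals and of an sgLuc guide, against the titles, source names and developmental stages, and the titles were used. No label states that arrays of 1 group stem from different mice, and p-values therefore cover only the spread between these samples, which may be technical.

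Stem cells of the marrow rebuild all blood lineages after transplantation. ST-HSC do so for a limited time, and MPP lie a step further, with little capacity to renew themselves and with early transcription of genes of the lineages they will enter. Most of the earliest stem cells rest outside the cell cycle, while progenitors divide often, so genes of DNA replication and mitosis, of stem cell regulators and of lineage priming are the groups by which these populations are usually told apart. All levels below are log2 signals of Affymetrix arrays hybridised with RNA amplified from 2 ng of total RNA, and all differences are log2 differences, ST-HSC minus MPP, with the standard error of a limma fit to all 18 arrays. A gene is called higher or lower where the Benjamini-Hochberg adjusted p over all genes was under 0.05, and "rose" and "fell" are used of called genes only. In such bulk samples fewer cells of a type and less RNA per cell cannot be told apart.

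Before the genes, the arrays themselves differed. The interquartile range of the log2 signals was 3.06 in ST-HSC a but 2.63 in ST-HSC b and 2.65 in ST-HSC c, against 2.98, 3.17 and 3.00 in MPP a, b and c. Outside these groups BM LT-HSC c (2.61) and FL LT-HSC b (2.71) were narrow too, and the other 14 arrays of the series spanned 2.98 to 3.18. ST-HSC a correlated with the MPP arrays at r = 0.982 to 0.985 over genes, above its correlation with ST-HSC b (0.976) and c (0.977), while b and c correlated with each other at 0.993. With genes ranked by signal into 10 classes of equal size, the median difference of ST-HSC b and c from the MPP mean was 0.17 in the dimmest class and -0.28 in class 9, whereas that of ST-HSC a was 0.01 and -0.04 in the same classes. The 255 genes called higher were spread over all classes, and of the 935 genes called lower 197, 218 and 185 lay in classes 8, 9 and 10, the brightest. ST-HSC a lay above both b and c in 736 of the 935 (78.7%), in 66.9% of all genes with a mean lower in ST-HSC than in MPP, and in 47.7% of all genes. What made ST-HSC b and c narrow was not tested, so counts without them, or after each array was scaled to a common interquartile range, are given beside the gene groups below. Leaving out all 4 narrow arrays leaves ST-HSC a as the only ST-HSC array of BM. The differences are then those of ST-HSC a alone, and only the spread in the fit changes. Counts without the narrow arrays therefore rest on 1 ST-HSC array and are no check across ST-HSC arrays.

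**Figure D1:**
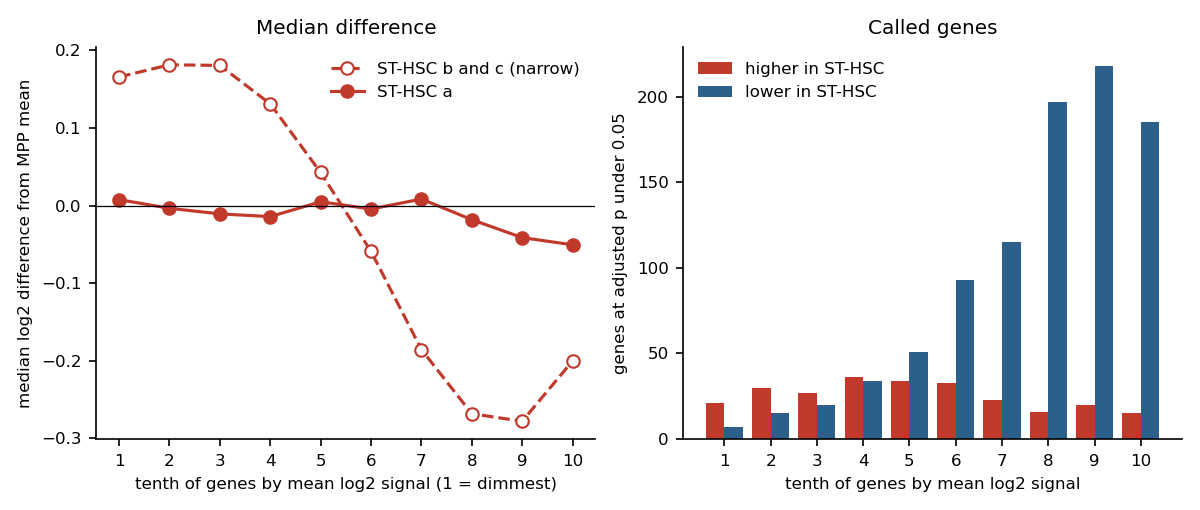
Left, median log2 difference from the MPP mean in 10 equal classes of genes ranked on mean log2 signal (1 is the dimmest), for ST-HSC b and c (open points, dashed line) and for ST-HSC a (filled points, solid line); right, bars counting the genes called higher (red) or lower (blue) in ST-HSC in each class. The line of b and c reaches -0.28 in class 9 while that of a stays near 0, and the calls lower in ST-HSC gather in the brightest classes, with 218 in class 9.

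Of 19505 genes tested, 255 were higher in ST-HSC (1.31%) and 935 were lower (4.79%), with a median difference over all genes of -0.01. The counts of gene lists below are to be read beside these shares, since a few calls in a list can lie near them. Some genes are in several lists and are counted in each. In 1180 of the 1190 called genes the 3 ST-HSC arrays and the 3 MPP arrays did not overlap. Such separation alone was common: all 3 ST-HSC arrays lay above all 3 MPP arrays for 2242 genes (11.5%) and below them for 3446 (17.7%). A difference of at least 2-fold was held by 56 of the genes that rose and 198 of those that fell. Calls higher made up 21.4% of all calls as deposited and 39.4% (366 higher, 563 lower) after scaling to one interquartile range. After quantile normalization they made up 34.7% (357 higher, 671 lower), so the size of the excess of calls lower in ST-HSC depended on the scaling. With ST-HSC a alone against the 3 MPP arrays, or without all 4 narrow arrays, the median difference over all genes was -0.01. Both settings hold ST-HSC a as the only ST-HSC array, so their counts have no ST-HSC replication. Leaving out ST-HSC a instead gave 1235 higher and 2209 lower, and leaving out any other of the 6 arrays gave 56 to 119 higher and 267 to 577 lower.

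**Figure D2:**
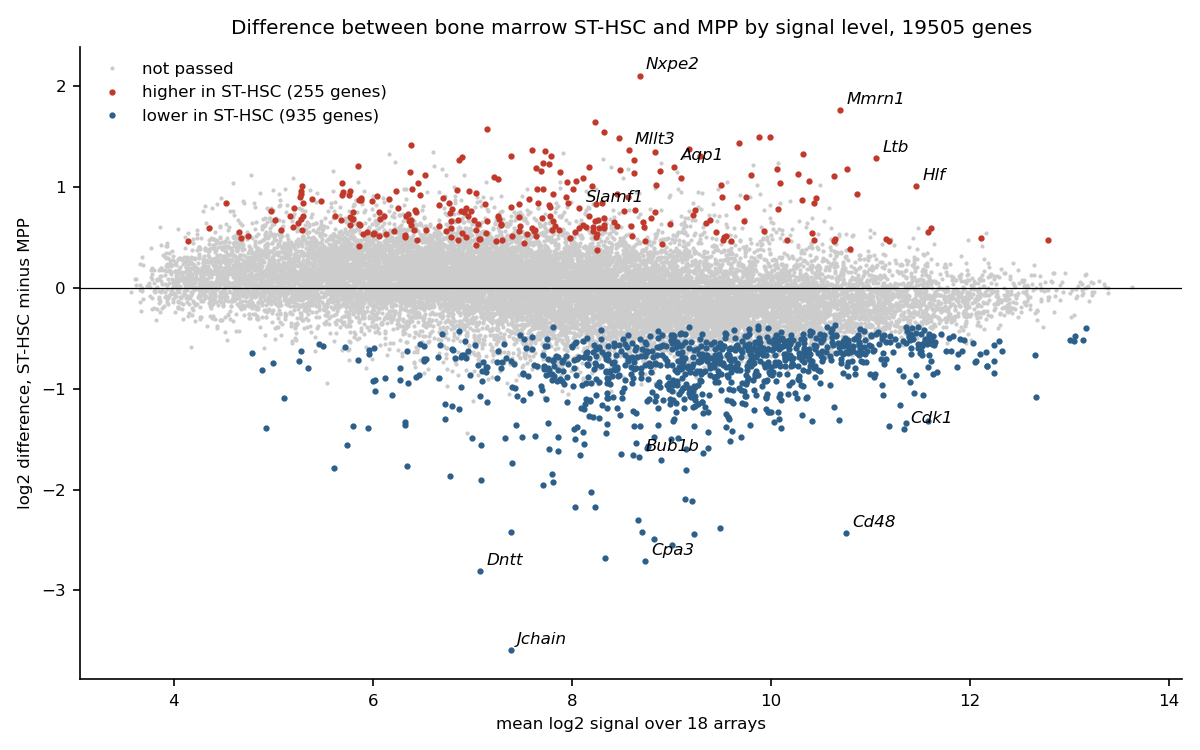
Log2 difference of BM ST-HSC and MPP (vertical) against the mean log2 signal over 18 arrays (horizontal), 1 point per gene, for 19505 genes. Red points are the 255 genes called higher, blue points the 935 called lower, most of them at high signal, and grey points those that did not pass; Jchain lies lowest at -3.59 and Nxpe2 highest at 2.10.

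The sort markers were read first. Cd48, the adhesion molecule used in the sort, was at 10.27, 9.60 and 9.62 in ST-HSC a, b and c, against 12.35, 12.19 and 12.25 in MPP, a difference of -2.43 ± 0.30 (5.39-fold, adjusted p = 0.000252). Slamf1, which encodes Cd150, was at 8.22, 8.10 and 7.80 in ST-HSC, against 7.18, 7.42 and 7.16 in MPP, and rose by 0.79 ± 0.18 (adjusted p = 0.0158). Its levels in ST-HSC lay below those of BM LT-HSC (9.95, 9.82 and 9.20), with no overlap. Kit, the receptor of the LSK gate, differed by 0.13 ± 0.12 (adjusted p = 0.53) and the leukocyte antigen gene Ptprc by -0.24 ± 0.19 (adjusted p = 0.47). Flt3 and Cd34, surface proteins that long-term stem cells lack or carry at low level, did not pass either: Flt3 was at 10.05, 9.54 and 9.75 in ST-HSC, against 10.06, 10.16 and 10.07 in MPP (difference -0.32 ± 0.15), and averaged 7.19 ± 0.23 (SD, n = 3) in LT-HSC. Cd48 was thus lower, and Slamf1 higher, on every ST-HSC array than on every MPP array. Without the exact gates, the difference in Slamf1 that the labels imply is not known. Cd48 was called without each array in turn, but Slamf1 lost its call without ST-HSC b, MPP a or MPP c (adjusted p up to 0.0726, without ST-HSC b).

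Part of the genes of stem cell identity rose in ST-HSC, and none fell. Of 29 transcription factor genes known from stem cells, 6 rose, none fell and 23 did not pass, with a median difference of 0.21. Mllt3, a chromatin reader of the super elongation complex that maintains human stem cells in culture, was at 9.06, 8.85 and 8.79 in ST-HSC, against 7.45, 8.04 and 7.11 in MPP (1.37 ± 0.20, 2.58-fold, adjusted p = 0.000925). Hlf, a leucine zipper factor restricted to the stem cell end of the marrow, was at 12.08, 12.01 and 12.20 in ST-HSC, against 11.03, 11.04 and 11.20 in MPP (1.01 ± 0.21, adjusted p = 0.00949). Neither gene's arrays overlapped between the populations, and the narrow arrays b and c lay close to a. Ndn, an imprinted gene tied to stem cell quiescence, differed by 1.31 ± 0.20 (adjusted p = 0.00116), the homeobox gene Nkx2-3 by 1.15 ± 0.17 (adjusted p = 0.000907), and Mecom, a zinc finger gene needed for long-term stem cells, by 1.04 ± 0.26 (adjusted p = 0.0266). The last gene was Gfi1b, a repressor active in the erythroid and platelet lineages, at 0.54 ± 0.15. Gfi1b lost its call with 5 of the 6 arrays left out in turn (adjusted p up to 0.132, without ST-HSC b). Meis1, a homeobox partner of Hox proteins, had a difference of 0.60 ± 0.24 and did not pass. Mllt3, Ndn and Nkx2-3 were called without each array in turn; Hlf lost its call without ST-HSC c (adjusted p = 0.0574) or 1 other array, and Mecom with 5 of the 6 arrays left out in turn (adjusted p up to 0.114, without ST-HSC c). After scaling to one interquartile range 9 of the 29 rose, and without the 4 narrow arrays 6 did.

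Of 30 surface and reporter genes of stem cells, 3 rose and none fell, with a median of 0.36. The arrays of 18 members lay higher in ST-HSC without overlap, which held for 11.5% of all genes. Ltb, a cytokine of the tumor necrosis factor family, was at 11.65, 11.33 and 11.55 in ST-HSC, against 10.14, 10.27 and 10.29 in MPP (1.28 ± 0.17, adjusted p = 0.000382). Fgd5, the guanine nucleotide exchange factor used for stem cell reporter mice, differed by 1.01 ± 0.21 (adjusted p = 0.00746) and the lectin gene Clec1a by 1.07 ± 0.30 (adjusted p = 0.0445). Procr, the protein C receptor that marks stem cells, was at 7.30, 7.66 and 7.74 in ST-HSC, against 6.44, 6.86 and 6.84 in MPP, and did not pass (0.85 ± 0.29, adjusted p = 0.0936). These groups did not overlap for Procr either. Fgd5 lost its call without MPP b (adjusted p = 0.0528), and Clec1a with each of the 6 arrays left out in turn (adjusted p up to 0.194). Without the 4 narrow arrays 5 of the 30 rose.

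The 15 called genes with the largest positive differences included several known from the stem cell and platelet lineage. Mmrn1, which encodes a platelet and endothelial adhesion protein, was at 10.71, 10.13 and 10.21 in ST-HSC, against 8.67, 8.65 and 8.46 in MPP (1.76 ± 0.21, 3.39-fold, adjusted p = 0.000195). Mamdc2 was at 8.87, 8.81 and 8.89 in ST-HSC, against 7.16, 7.47 and 7.31 in MPP (1.55 ± 0.16, adjusted p = 7.91e-05). For both genes every ST-HSC array stood more than 1 log2 unit above every MPP array. Pdzk1ip1, a small membrane protein used to report stem cells in mice, differed by 1.49 ± 0.28, the scaffold of endocytosis Itsn1 by 1.49 ± 0.31, the Wnt co-receptor Ryk by 1.43 ± 0.25, the dehydrogenase Bdh2 by 1.48 ± 0.25, and Ptges, a prostaglandin E synthase, by 1.35 ± 0.26. Fam110c (1.64 ± 0.26) and Ccdc60 (1.35 ± 0.25) rose as well. With Mllt3, these 9 genes were called without each array in turn. The remaining 5 were not: Nxpe2 (2.10 ± 0.56), Cpe (1.57 ± 0.43), B3galt1 (1.42 ± 0.38), Ces2g (1.37 ± 0.39) and Il1b (1.36 ± 0.40) lost their calls with 4 or 5 of the 6 arrays left out in turn, with adjusted p up to 0.193. Nxpe2 had the largest difference and a wide spread, with 10.38, 9.50 and 8.54 in ST-HSC, against 7.41, 7.20 and 7.50 in MPP.

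**Figure D3:**
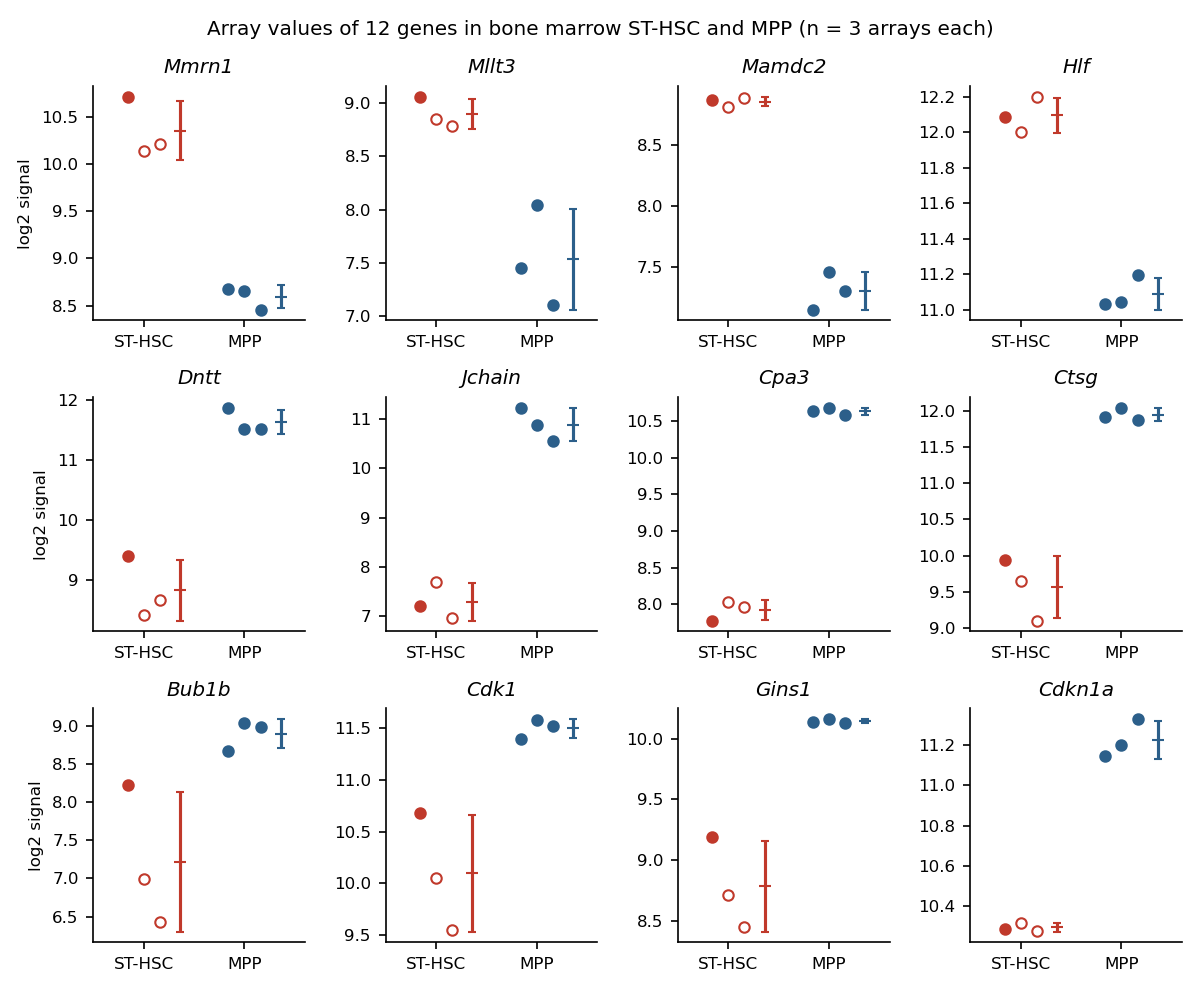
Log2 signals of 12 genes on the 3 BM ST-HSC arrays (red, left) and the 3 BM MPP arrays (blue, right), in the order a, b, c, with mean and SD beside them; open points are the narrow arrays b and c, and each panel has its own vertical axis. The groups do not overlap in any panel, and in Bub1b, Cdk1 and Gins1 ST-HSC a lies between ST-HSC b and c and the MPP arrays.

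Many genes of lineage priming fell in ST-HSC. Of 40 granulocyte and monocyte genes 18 fell, none rose and 22 did not pass, with a median of -0.86. The 18 include Calr and Nkg7, which are also counted in other lists below. Ctsg, a serine protease of neutrophil granules, was at 9.94, 9.65 and 9.10 in ST-HSC, against 11.91, 12.04 and 11.87 in MPP (-2.38 ± 0.41, 5.20-fold, adjusted p = 0.00254). Csf1r, the receptor that drives monocyte development, was at 7.45, 7.82 and 7.88 in ST-HSC, against 9.30, 9.66 and 9.15 in MPP (-1.66 ± 0.29, adjusted p = 0.00308). ST-HSC lay below MPP on all arrays in both genes, and in Csf1r the narrow arrays lay above ST-HSC a. Ly86, the partner of a Toll-like receptor relative, had a difference of -2.49 ± 0.40 (adjusted p = 0.00164) and the Fc receptor gene Fcgr2b of -1.50 ± 0.30 (adjusted p = 0.00648). Ms4a3, a marker of granulocyte and monocyte progenitors (-2.44 ± 0.50), and the lectin Clec12a (-1.92 ± 0.42) fell too, but lost their calls with 1 and 2 arrays left out (adjusted p up to 0.0697, Clec12a without MPP b). The granule genes Mpo (-1.08 ± 0.20) and Elane (-1.17 ± 0.32) were also called, of which Mpo kept its call each time and Elane lost it with 5 arrays left out (up to 0.177, without ST-HSC c). The master regulators Spi1 (-0.26 ± 0.16) and Cebpa (-0.41 ± 0.18) did not pass. With single arrays left out 8 to 20 of the 40 fell, the fewest without ST-HSC c, and 17 fell without the 4 narrow arrays but 7 after scaling to one interquartile range, where the median was -0.66.

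The genes of late neutrophils did not follow: of 18, none fell and 1 rose, Il1b, which encodes an inflammatory cytokine, with a median of 0.64. A difference above 0 was held by 17 of the 18. In 10 of them every ST-HSC array lay above every MPP array, which held for 11.5% of all genes. The mean level of the list was 9.74, 10.22 and 9.89 in ST-HSC, against 9.67, 9.24 and 9.27 in MPP. In BM LT-HSC a, b and c it was 10.24, 10.32 and 11.71. Without the 4 narrow arrays 1 member rose, and after scaling none did. Lcn2, a granule protein that binds iron carriers, was at 12.04, 12.70 and 12.38 in ST-HSC, against 11.98, 11.62 and 11.62 in MPP, and did not pass (0.63 ± 0.47, adjusted p = 0.429). The part of mature neutrophil RNA in the other results was not tested.

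Of 29 genes of lymphoid priming 6 fell and none rose, with a median of -0.24. Dntt, the polymerase that adds nucleotides at antigen receptor joints, was at 9.40, 8.42 and 8.67 in ST-HSC, against 11.87, 11.51 and 11.52 in MPP (-2.81 ± 0.36, adjusted p = 0.000282). BM LT-HSC were lower still, at 5.91, 6.09 and 7.83. Il7r, the receptor chain that lymphoid progenitors need, was at 6.56, 6.35 and 6.84 in ST-HSC, against 8.54, 8.67 and 8.40 in MPP (-1.95 ± 0.29, adjusted p = 0.000907). The chromatin organiser Satb1 (-1.12 ± 0.16, adjusted p = 0.000679), the calponin Cnn3 (-1.80 ± 0.24), the Wnt effector Lef1 (-0.74 ± 0.17) and Notch1 (-0.63 ± 0.17) made up the 6. Dntt, Il7r, Satb1 and Cnn3 kept their calls with each array left out, whereas Lef1 lost its call with 2 arrays left out (adjusted p up to 0.0932, without MPP a) and Notch1 with 5 (up to 0.191, without ST-HSC b). Rag2, a subunit of the antigen receptor recombinase, had a difference of -0.41 ± 0.25 and did not pass. After scaling 6 genes of the list fell and 1 rose, and without the 4 narrow arrays 5 fell and none rose.

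Of 19 B cell genes 7 fell and none rose, with a median of -0.61 and of -0.59 after scaling, where 6 fell. Jchain, the joining chain of secreted antibodies, had the largest difference of all genes, at 7.20, 7.70 and 6.96 in ST-HSC, against 11.23, 10.87 and 10.55 in MPP (-3.59 ± 0.44, 12.1-fold, adjusted p = 0.000214). Vpreb1, a surrogate light chain, was at 8.69, 9.21 and 8.94 in ST-HSC, against 11.02, 10.27 and 10.33 in MPP (-1.60 ± 0.29). Ebf1, the early B lineage factor, was at 8.64, 9.11 and 9.11 in ST-HSC, against 10.50, 9.80 and 9.90 in MPP (-1.11 ± 0.21). MPP a was the highest of the 6 arrays in all 3 genes. The mean level of the list was 7.72, 7.86 and 7.76 in ST-HSC, against 8.93, 8.36 and 8.40 in MPP, with MPP a again highest. Mzb1, an endoplasmic reticulum protein of B and plasma cells (-1.91 ± 0.21), Igll1 (-1.19 ± 0.23), Blnk (-1.30 ± 0.28) and Cd79b fell as well. The defining genes of later B cells, Pax5 (-0.61 ± 0.28) and Cd79a (-0.40 ± 0.33), did not pass, and the part of B lineage cells among the sorted MPP was not tested. Without the 4 narrow arrays 5 of the 19 fell. Without MPP a 5 fell too, and Blnk (adjusted p = 0.0643) and Cd79b (0.0943) lost their calls. Blnk lost its call with 1 further array left out and Cd79b with 3, while the other 5 kept theirs each time.

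The mast cell, basophil and eosinophil list had 5 of 19 members lower and none higher, with a median of -0.45. Cpa3, the carboxypeptidase of mast cell granules, was at 7.78, 8.04 and 7.97 in ST-HSC, against 10.64, 10.68 and 10.58 in MPP (-2.71 ± 0.39, 6.52-fold, adjusted p = 0.000778). The basophil protease Mcpt8 differed by -1.85 ± 0.40 (adjusted p = 0.0116), the eosinophil lectin Siglecf by -1.47 ± 0.26, the granzyme Gzmb by -1.17 ± 0.17 and the IgE receptor chain Ms4a2 by -0.57 ± 0.16. Among T and NK cell genes 3 of 21 fell, with a median of -0.15, namely Nkg7 (-1.30 ± 0.22), Gzmb and Zap70 (-0.74 ± 0.16), while the T cell antigen receptor gene Cd3e, at 0.23 ± 0.25, did not pass. Cpa3, Siglecf, Gzmb and Nkg7 kept their calls with each array left out. Mcpt8 lost its call with 4 arrays left out (adjusted p up to 0.0567, without ST-HSC c), Ms4a2 with 5 (up to 0.184, without MPP b) and Zap70 with 2 (up to 0.0862, without ST-HSC c). The number of mast cell genes that fell was also 5 after scaling and 5 without the 4 narrow arrays. Of the T and NK cell genes 2 fell and 1 rose after scaling, and 3 fell and none rose without the narrow arrays.

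Of the 15 called genes with the largest negative differences, those not yet named were Slc4a8, a bicarbonate transporter (-2.67 ± 0.20), Atp8b4, a lipid flippase (-2.55 ± 0.46), BC035044 (-2.43 ± 0.25), the choline dehydrogenase Chdh (-2.42 ± 0.29), Tifab, a regulator of innate immune signalling (-2.30 ± 0.24), Rnase12 (-2.17 ± 0.30), the annexin Anxa3 (-2.17 ± 0.29) and Bex6 (-2.11 ± 0.31). All kept their calls with each array left out, and the ST-HSC and MPP arrays did not overlap for any of them. Slc4a8 had the smallest adjusted p of the named genes (2.02e-06), at 7.93, 7.79 and 7.78 in ST-HSC, against 10.67, 10.71 and 10.13 in MPP.

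Genes of the cell cycle fell in large numbers in ST-HSC. Of 68 mitosis genes 54 fell, none rose and 14 did not pass, with a median of -0.93, and all 68 differences were below 0. Of 60 genes of S phase and DNA replication 36 fell, none rose and 24 did not pass, with a median of -0.60, again with all 60 below 0. Bub1b, a kinase of the spindle checkpoint, was at 8.23, 6.99 and 6.43 in ST-HSC, against 8.67, 9.03 and 8.99 in MPP (-1.68 ± 0.29, 3.20-fold, adjusted p = 0.00276). Cdk1, the kinase that starts mitosis, was at 10.68, 10.06 and 9.55 in ST-HSC, against 11.40, 11.58 and 11.53 in MPP (-1.40 ± 0.22, adjusted p = 0.00123). Gins1, a subunit of the replicative helicase, was at 9.19, 8.71 and 8.45 in ST-HSC, against 10.14, 10.16 and 10.13 in MPP (-1.36 ± 0.21, adjusted p = 0.00132). In each of these genes the arrays did not overlap, and ST-HSC a lay between ST-HSC b and c and the MPP arrays.

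The condensin subunit Ncaph (-1.59 ± 0.27), the checkpoint kinases Ttk (-1.57 ± 0.28) and Bub1 (-1.49 ± 0.29) and the cohesin protector Cdca5 (-1.54 ± 0.23) were the next of the mitosis list. Among replication genes Ticrr, which fires origins (-1.23 ± 0.19), the polymerase subunit Pole2 (-1.13 ± 0.20), the exonuclease Exo1 (-1.12 ± 0.23), the histone chaperone Nasp (-1.08 ± 0.19) and the replicative helicase component Cdc45 (-0.98 ± 0.20) followed Gins1. Mki67, the common proliferation marker, was at 11.96, 11.58 and 11.18 in ST-HSC, against 12.08, 12.09 and 12.20 in MPP, and did not pass (-0.55 ± 0.18, adjusted p = 0.0833). Pcna, the sliding clamp, was at -0.15 ± 0.11 and did not pass. Of 22 genes for cyclins, their kinases and E2F factors 9 fell and none rose, with a median of -0.57: Mybl2, which activates mitotic genes (-1.32 ± 0.26), the phosphatases Cdc25c (-1.10 ± 0.25) and Cdc25a (-0.89 ± 0.22), E2f8 (-0.85 ± 0.17), the ubiquitin ligase part Skp2 (-0.85 ± 0.18), Cks1b (-0.85 ± 0.16), Cdk6 (-0.76 ± 0.16), Cks2 and Cdk2. Of the genes of this paragraph, Exo1, Cdc45, Cdc25c, Cdc25a, E2f8, Skp2, Cdk6, Cks2 and Cdk2 lost their calls with 1 to 5 arrays left out in turn (adjusted p up to 0.183, Cdk2 without ST-HSC c), and the other called genes kept theirs. The cyclin list lost its one-sided count after scaling to one interquartile range, where 2 genes rose and 4 fell.

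The size of this group depended on the arrays. The mean of the 68 mitosis genes was 9.44, 8.88 and 8.64 in ST-HSC a, b and c, against 9.82, 10.02 and 9.94 in MPP, and the mean of the 60 S phase genes was 9.76, 9.45 and 9.32 in ST-HSC, against 10.11, 10.21 and 10.09 in MPP. BM LT-HSC a, b and c stood at 9.62, 9.75 and 9.76 for mitosis, all above ST-HSC, and at 9.78, 9.90 and 9.69 for S phase, where the narrow LT-HSC c was the lowest of them and lay below ST-HSC a. With ST-HSC a alone the medians were -0.49 for mitosis and -0.38 for S phase. Both medians were the same without the 4 narrow arrays, where ST-HSC a is again the only ST-HSC array. After scaling to one interquartile range 43 mitosis genes fell, with a median of -0.78, and 19 S phase genes, with a median of -0.41. Leaving out ST-HSC c gave 28 and 12 genes, MPP b 31 and 13, and ST-HSC a 65 and 53. Every ST-HSC array lay below every MPP array in 64 of the 68 mitosis genes and 53 of the 60 S phase genes, where this held for 17.7% of all genes.

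**Figure D4:**
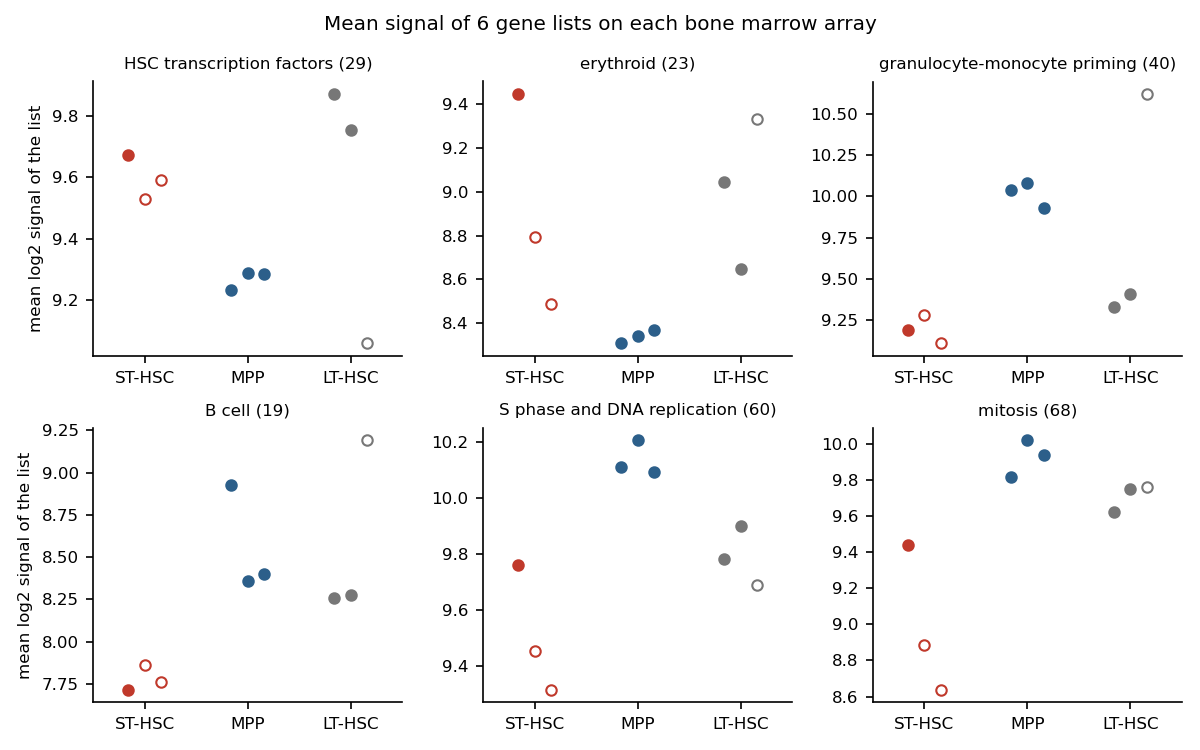
Mean log2 signal of 6 gene lists (number of genes measured in brackets) on each BM array, ST-HSC (red), MPP (blue) and LT-HSC (grey), in the order a, b, c; open points are narrow arrays. For S phase and mitosis genes all 3 ST-HSC arrays lie below the MPP arrays, with ST-HSC a nearest to them; for the erythroid list ST-HSC a stands highest at 9.45.

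Because these genes fell together, the bases before their start sites were searched for motifs known from cell cycle promoters. Sequences are those of RefSeq on GRCm38.p6, and 50 of the 60 S phase genes, 59 of the 68 mitosis genes and 15691 of all 19505 genes had a promoter in the table. The E2F motif was searched as TTTCCCGC, TTTGGCGC, TTTCGCGC or TTTGCCGC and the cell cycle genes homology region (CHR) as TTTGAA, on both strands of the 250 bases before the start, where no E2F match can share bases with a CHR match. A promoter was available for 27 of the 36 S phase genes and 46 of the 54 mitosis genes that fell. All shares of matches are of genes with a promoter. An E2F match was found in 8 of these 27 S phase genes (29.6%) and in 2.81% of all genes. A CHR match was found in 20 of these 46 mitosis genes (43.5%) and in 16.1% of all genes. Mitosis genes that fell held an E2F match in 8.70% and S phase genes that fell a CHR match in 18.5%. The shares among all measured members were 24.0% for E2F in S phase genes and 40.7% for CHR in mitosis genes, close to those of the members that fell. A match is a description of the letters and was not tested as a binding site. The 100 bases before the start follow, 5′ to 3′ on the strand of the gene. Capitals mark E2F matches of the S phase genes (Dtl, Hells) or CHR matches of the mitosis genes (Cdca5, Cdk1, Kif15). Those genes are shown because the stretch holds a match, and members without one were passed over. By size of difference Dtl and Hells ranked 10 and 15 among the S phase genes that fell. Cdca5, Cdk1 and Kif15 ranked 4, 6 and 14 among the mitosis genes that fell. The Kif15 stretch also holds an E2F match on the other strand (GCGCCAAA), directly before its CHR match and left in lower case. Ticrr and Bub1b, the S phase and mitosis genes with the largest difference among those in the table, show no match of their list's motif in this stretch.
Ticrr: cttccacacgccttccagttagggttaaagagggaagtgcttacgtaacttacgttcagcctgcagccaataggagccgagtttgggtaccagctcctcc
Dtl: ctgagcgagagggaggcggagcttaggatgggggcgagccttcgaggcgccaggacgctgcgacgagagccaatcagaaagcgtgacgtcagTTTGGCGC
Hells: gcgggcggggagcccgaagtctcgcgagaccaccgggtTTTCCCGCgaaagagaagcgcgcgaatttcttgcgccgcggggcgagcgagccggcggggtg
Bub1b: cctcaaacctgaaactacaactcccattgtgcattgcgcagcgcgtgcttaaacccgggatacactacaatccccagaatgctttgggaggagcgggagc
Cdca5: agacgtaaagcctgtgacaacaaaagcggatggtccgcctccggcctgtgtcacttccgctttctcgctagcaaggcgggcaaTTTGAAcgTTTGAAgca
Cdk1: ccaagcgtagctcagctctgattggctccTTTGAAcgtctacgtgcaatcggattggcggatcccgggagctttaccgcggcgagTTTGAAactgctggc
Kif15: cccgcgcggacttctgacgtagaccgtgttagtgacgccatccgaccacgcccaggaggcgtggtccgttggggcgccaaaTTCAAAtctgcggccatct

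These stretches lie at chr7:79660096-79660195 (plus strand, Ticrr), chr1:191575545-191575644 (minus, Dtl), chr19:38930890-38930989 (plus, Hells), chr2:118598111-118598210 (plus, Bub1b), chr19:6084997-6085096 (plus, Cdca5), chr10:69352913-69353012 (minus, Cdk1) and chr9:122950981-122951080 (plus, Kif15). Dtl, a substrate receptor of a replication-coupled ubiquitin ligase, was at 10.49, 10.18 and 9.92 in ST-HSC, against 11.01, 11.06 and 11.04 in MPP (-0.84 ± 0.13, adjusted p = 0.00128). Hells, a chromatin remodeller, was at 7.62, 7.56 and 7.52 in ST-HSC, against 8.18, 8.48 and 8.36 in MPP (-0.77 ± 0.14, adjusted p = 0.00474). Cdca5 was at 8.21, 7.34 and 7.21 in ST-HSC, against 9.03, 9.32 and 9.04 in MPP. Kif15, a spindle motor, was at 9.82, 8.63 and 8.44 in ST-HSC, against 10.05, 10.30 and 10.24 in MPP (-1.23 ± 0.24, adjusted p = 0.00595). The groups did not overlap in these 4 genes, and Hells was the gene in which ST-HSC a lay nearest to b and c.

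Genes that hold cells out of the cycle went both ways. Of 25 inhibitor and quiescence genes 2 rose and 4 fell, with a median of -0.06. Cdkn1a, the p53 target that inhibits cyclin-dependent kinases, was at 10.29, 10.32 and 10.28 in ST-HSC, against 11.14, 11.20 and 11.33 in MPP (-0.93 ± 0.22, adjusted p = 0.0197). BM LT-HSC were lower again, at 9.80, 9.03 and 8.66. The inhibitors Cdkn2b (-0.53 ± 0.10) and Cdkn2c (-0.66 ± 0.16) and the pocket protein gene Rbl1 (-0.67 ± 0.17) fell too, while Txnip, a redox regulator (0.47 ± 0.12), and Rbl2, the pocket protein of resting cells (0.38 ± 0.10), rose. Cdkn2b kept its call with each array left out, and the other 5 lost theirs with 3 to 5 arrays left out in turn (adjusted p up to 0.173). None of the 25 was called without the 4 narrow arrays, and after scaling 3 rose and 2 fell.

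A few erythroid genes rose in ST-HSC, and the list stood highest on 1 array. Of 23 genes, 4 rose and none fell, with a median of 0.63. Car2, the carbonic anhydrase of red cell progenitors, was at 11.71, 11.17 and 11.51 in ST-HSC, against 10.44, 10.58 and 10.59 in MPP (0.93 ± 0.14, adjusted p = 0.00128). Aqp1, the water channel of the red cell membrane, was at 10.97, 9.89 and 8.97 in ST-HSC, against 8.69, 9.02 and 8.52 in MPP (1.20 ± 0.35, adjusted p = 0.0491), so ST-HSC c lay within the range of MPP. Epor, the erythropoietin receptor, was at 9.11, 8.69 and 8.34 in ST-HSC, against 7.85, 7.81 and 7.79 in MPP (0.89 ± 0.22, adjusted p = 0.0201). The fourth was the aquaglyceroporin Aqp9 (0.84 ± 0.15). Rhag, Epb42 and Ank1, membrane and skeleton genes of the red cell, had differences of 1.53 ± 0.55, 1.18 ± 0.63 and 1.15 ± 0.62 and did not pass. Rhag was at 10.37, 9.33 and 8.65 in ST-HSC, against 8.10, 7.83 and 7.83 in MPP. The mean of the list was 9.45, 8.79 and 8.49 in ST-HSC a, b and c, against 8.31, 8.34 and 8.37 in MPP, and the median difference was 1.13 with ST-HSC a alone and 0.34 for b and c. After scaling 6 of the 23 rose, and without the 4 narrow arrays, which leaves only ST-HSC a, the median was again 1.13. The regulator Klf1 was at 9.55, 8.53 and 7.85 in ST-HSC, against 8.16, 8.09 and 8.13 in MPP, and Gata1 differed by -0.05 ± 0.12; the part of erythroid cells in ST-HSC a was not tested. Car2 and Aqp9 kept their calls with each array left out, Aqp1 lost its call with 5 (adjusted p up to 0.142, without MPP c) and Epor with 4 (up to 0.0813, without MPP b).

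Of 27 megakaryocyte and platelet genes 5 rose and 1 fell, with a median of 0.21. Beside Mmrn1 and Pdzk1ip1, the chemokine gene Pf4 was at 9.84, 10.20 and 9.80 in ST-HSC, against 9.34, 9.13 and 8.98 in MPP (0.80 ± 0.16, adjusted p = 0.00685), below BM LT-HSC at 12.03, 12.25 and 11.96. Thbs1, thrombospondin (0.93 ± 0.21), and the G protein subunit Gng11 (0.89 ± 0.25) rose as well. Selp, the adhesion receptor P-selectin, was at 9.92, 9.98 and 9.59 in ST-HSC, against 10.48, 10.61 and 10.74 in MPP, and fell (-0.78 ± 0.15, adjusted p = 0.00638). Vwf, the platelet adhesion factor that marks platelet-biased stem cells, did not pass (0.21 ± 0.20). Pf4 kept its call with each array left out, Selp lost its call without ST-HSC c (adjusted p = 0.0525), Thbs1 with 3 arrays left out (up to 0.0712) and Gng11 with each of the 6 (up to 0.123, without MPP a). After scaling 6 genes of the list rose and none fell, and without the 4 narrow arrays 4 rose and none fell.

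Of 10 MHC class II genes 3 fell and none rose, with a median of -0.33. H2-Eb1, a class II beta chain, was at 9.33, 9.57 and 9.59 in ST-HSC, against 10.93, 10.93 and 11.08 in MPP (-1.48 ± 0.25, adjusted p = 0.00216). The further beta chain gene H2-Ab1 differed by -1.06 ± 0.26 and the chaperone H2-Ob by -0.54 ± 0.14. The 19 genes of class I processing held 1 call, the chaperone Calr (-0.48 ± 0.13), and had a median of -0.13. Over all genes 4.79% fell and 1.31% rose. Of 45 interferon-stimulated genes 3 rose, namely Oasl2 (0.59 ± 0.13), Isg20 (0.52 ± 0.13) and Rtp4 (0.46 ± 0.13), and 3 fell, namely the guanylate binding protein Gbp3 (-0.76 ± 0.21), Ifit2 (-0.72 ± 0.20) and the tether of viral particles Bst2 (-0.43 ± 0.10), with a median of 0.14. Of 38 immediate early genes, which respond to handling and stimulation within minutes, none passed in limma. At an unadjusted p under 0.05 in limma 6 of them were higher and 1 lower, against 1703 and 2865 of all 19505 genes. Egr1, at 11.12, 10.75 and 11.05 in ST-HSC, against 10.24, 10.29 and 10.27 in MPP, had a difference of 0.71 ± 0.39, and the list's median was 0.24. H2-Eb1 kept its call with each array left out, and the other 9 called genes of this paragraph lost theirs with 2 to 6 arrays left out in turn (adjusted p up to 0.211, Ifit2 without ST-HSC c). After scaling to one interquartile range the class II median was 0.01, with 1 gene lower, no class I gene was called and 3 immediate early genes rose. The even split of interferon-stimulated genes depended on the setting: after scaling, and after quantile normalization, 6 rose and 1 fell, with the interquartile range as covariate 7 rose and 1 fell, and without the 4 narrow arrays 1 rose and none fell. In that last setting 2 class II genes fell and neither a class I gene nor an immediate early gene was called.

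Genes of protein folding in the endoplasmic reticulum and of metabolism were read next, beside the 4.79% of all genes that fell and the 1.31% that rose. Of 20 unfolded protein response genes 7 fell and 1 rose, with a median of -0.31. Sdf2l1, an endoplasmic reticulum cochaperone, was at 9.34, 9.54 and 9.37 in ST-HSC, against 10.70, 10.63 and 10.53 in MPP (-1.21 ± 0.15, adjusted p = 0.000253), and Edem1, which directs misfolded glycoproteins to degradation, differed by -0.75 ± 0.13. Both kept their calls with each array left out. Creld2 (-0.87 ± 0.18), the disulfide isomerase Pdia6 (-0.74 ± 0.19), Hyou1 (-0.68 ± 0.15), Hsp90b1 (-0.64 ± 0.14) and Calr fell as well, and the cochaperone Dnajb9 rose (0.47 ± 0.14). The last 6 genes lost their calls with 1 to 5 arrays left out in turn (adjusted p up to 0.20, Dnajb9 without ST-HSC c). With single arrays left out 2 to 9 of the 20 fell, the fewest without ST-HSC c, and 1 fell without the 4 narrow arrays and 3 after scaling. Of 72 genes of oxidative phosphorylation 10 fell, with a median of -0.26, but after scaling 2 fell and the median was 0.05. The list is bright, with a mean level of 11.23, and the brightest class of all genes had a median of 0.20 after scaling. With quantile normalization the median of the list was -0.15, so the sign of its median depended on the setting. No oxidative phosphorylation gene fell with ST-HSC b, ST-HSC c, MPP a or MPP b left out, and 27 did without ST-HSC a. Of 34 glycolysis and hypoxia genes 4 fell, with a median of -0.20: Pgam1, a mutase of glycolysis (-1.05 ± 0.15), Egln3 (-0.78 ± 0.20), Pfkp (-0.72 ± 0.16) and Pkm (-0.37 ± 0.10), of which Pgam1 kept its call with each array left out but not after scaling, and the others lost theirs with 3 to 5 arrays left out (up to 0.195, Pkm without ST-HSC b). Ribosome biogenesis had 3 of 45 lower with a median of -0.26 (Rrp12, -0.63 ± 0.17; Nolc1, -0.51 ± 0.14; Bop1, -0.47 ± 0.11) and cholesterol and fatty acid synthesis 2 of 25 with a median of -0.15 (Fdps, -0.72 ± 0.17; Ebp, -0.64 ± 0.17). Neither of these last lists held a call without ST-HSC b, without ST-HSC c or without the 4 narrow arrays. After scaling 1 ribosome biogenesis gene fell, 1 gene of cholesterol and fatty acid synthesis rose and 1 fell, and 1 gene of glycolysis and hypoxia rose and none fell, where without the narrow arrays 1 fell.

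Among receptors and adhesion molecules, Itgal, an integrin alpha chain of leukocytes, was at 9.66, 9.09 and 9.19 in ST-HSC, against 10.73, 10.70 and 10.69 in MPP (-1.39 ± 0.27, adjusted p = 0.00637). Cxcr4, the receptor that retains stem cells in the marrow, was at 10.21, 9.91 and 10.14 in ST-HSC, against 10.96, 10.78 and 10.86 in MPP (-0.78 ± 0.15, adjusted p = 0.00593). Both fell without overlap of the arrays and kept their calls with each array left out, although Cxcr4 lost its call after scaling and without the 4 narrow arrays. Pecam1 (-0.78 ± 0.13) and Cd44 (-0.61 ± 0.17) were the other of 27 homing genes that fell, and the sphingolipid receptor S1pr1 rose (0.59 ± 0.17), with a list median of -0.03. Of 31 cytokine receptors 5 fell and 1 rose, with a median of -0.26: beside Il7r, Csf1r and Epor these were Il6ra (-0.73 ± 0.19), its signalling partner Il6st (-0.72 ± 0.18) and Tgfbr1 (-0.69 ± 0.17). Of 8 GTPases of the Gimap family, whose median was 0.36, 2 rose, with Gimap8 at 8.95, 9.04 and 9.15 in ST-HSC, against 8.01, 8.04 and 8.05 in MPP (1.02 ± 0.13, adjusted p = 0.000252), and Gimap6 at 0.86 ± 0.24. Of 21 imprinted genes, with a median of 0.11, 3 rose: Ndn, Phlda2 (1.31 ± 0.31) and Impact (0.56 ± 0.16). Of 22 targets and receptors of Notch, Wnt and TGF-beta signalling, with a median of 0.06, Hey1 rose (0.66 ± 0.19), and Id2 (-1.10 ± 0.26), Lef1 and Notch1 fell. Pecam1 and Gimap8 kept their calls with each array left out; Cd44, S1pr1, Il6ra, Il6st, Tgfbr1, Gimap6, Phlda2, Impact, Hey1 and Id2 lost theirs with 2 to 6 arrays left out in turn (adjusted p up to 0.238, Cd44 without ST-HSC b). After scaling 2 homing genes rose and 2 fell, 2 cytokine receptors rose and 3 fell, 3 Gimap and 4 imprinted genes rose, and 3 of the signalling list fell. Without the 4 narrow arrays 2 homing genes rose and 2 fell, 3 cytokine receptors rose and 2 fell, 3 Gimap and 3 imprinted genes rose, and none of the signalling list was called.

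Markers of cells outside the LSK gate were read from whole lists, beside the 4.79% of all genes that fell and the 1.31% that rose. Of 20 endothelial genes 1 fell, Pecam1, and none rose, but without the 4 narrow arrays, and with the interquartile range as covariate, 4 rose and 1 fell, and after scaling 1 rose and 1 fell; their median difference was 0.19 and their mean level 7.49, 7.40 and 7.38 in ST-HSC, against 7.29, 7.16 and 7.28 in MPP. Of 21 stromal genes Bgn (0.83 ± 0.17) and Postn (0.81 ± 0.22) rose and the platelet-derived growth factor receptor Pdgfrb fell (-1.26 ± 0.18, adjusted p = 0.000813), with a median of 0.16 and a mean level of 7.35, 7.49 and 7.61 in ST-HSC, against 7.42, 7.20 and 7.19 in MPP. Of 21 macrophage genes Spic, a factor of red pulp macrophages, rose (0.96 ± 0.19), with a median of 0.18 and a mean level of 7.18, 7.28 and 7.18 in ST-HSC, against 7.18, 6.90 and 6.97 in MPP. Pdgfrb kept its call with each array left out; Bgn lost its call without ST-HSC c (adjusted p = 0.057), Spic without MPP b (at the threshold) and Postn with each of the 6 (up to 0.156). The stromal count was 2 higher and 1 lower in both other settings as well, and macrophage genes had 1 higher after scaling and 2 without the narrow arrays. The part of such cells in the other results was not tested.

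BM ST-HSC and MPP were then set beside the same populations of FL, measured on 6 other arrays of the same fit. In FL 309 genes were higher in ST-HSC (1.58%) and 132 were lower (0.677%), so calls higher outnumbered calls lower there. Of the 1190 genes called in BM, 120 were called in the same direction in FL (54 higher, 66 lower), which is 10.1% of the BM calls and 27.2% of the 441 FL calls. A further 3 were called in opposite directions, namely Selp, Stxbp6 and Rasgrp3. Cd48 had a difference of -2.43 ± 0.30 in BM and -2.39 in FL. Mllt3 had a difference of 1.37 ± 0.20 in BM and 1.89 in FL, Hlf of 1.01 ± 0.21 and 1.03, and Mamdc2 of 1.55 ± 0.16 and 1.36, all called in both. For the mitosis list the median was -0.93 in BM and -0.20 in FL, with 54 and 1 genes lower, and for S phase -0.60 and -0.21, with 36 and 0 genes lower. No gene of either list passed the test of the difference between BM and FL, so these lists are not shown to differ between the stages gene by gene.

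That test, the BM difference minus the FL difference, called 36 of 19505 genes (0.185%), 8 with a higher and 28 with a lower difference in BM. Of these 24 were called within BM and 17 within FL. Dntt fell in BM (-2.81 ± 0.36), while in FL it was at 5.10, 4.79 and 5.06 in ST-HSC, against 4.94, 5.37 and 5.34 in MPP (-0.23 ± 0.36), and the stages differed by -2.58 ± 0.51 (adjusted p = 0.0489). Jchain was low on all FL arrays too, at 5.62, 5.94 and 5.23 in ST-HSC, against 5.40, 6.10 and 5.32 in MPP, and the stages differed by -3.59 ± 0.62 (adjusted p = 0.0271). Both genes of lymphoid development thus differed between the populations in BM and overlapped in FL. Selp fell in BM (-0.78 ± 0.15) and rose in FL (1.11 ± 0.15), at 10.09, 9.82 and 10.25 in FL ST-HSC, against 8.90, 8.79 and 9.15 in FL MPP (difference between the stages -1.89 ± 0.22, adjusted p = 0.000435). The endothelial cadherin Cdh5 did not pass in BM (0.29 ± 0.21), at 6.12, 5.96 and 6.09 in ST-HSC, against 6.04, 5.24 and 6.02 in MPP, but rose in FL by 2.44 ± 0.21. Igf2, an imprinted growth factor, was at 8.71, 8.91 and 8.78 in BM ST-HSC, against 8.79, 8.28 and 8.53 in BM MPP (0.27 ± 0.16), and rose in FL by 2.33 ± 0.16. Pdzk1ip1 rose in both, by 1.49 ± 0.28 in BM and 3.65 ± 0.28 in FL.

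In the other direction Aldh1a1, a retinal dehydrogenase, rose in BM (1.04 ± 0.18), at 7.57, 7.09 and 6.98 in ST-HSC, against 6.23, 6.27 and 6.03 in MPP, and did not pass in FL (-0.37 ± 0.18). Sema7a, a membrane-anchored semaphorin, was at 8.16, 8.37 and 8.35 in BM ST-HSC, against 7.06, 7.25 and 7.01 in BM MPP (1.18 ± 0.20), and at -0.29 ± 0.20 in FL. The count of genes that differed between the stages was small and moved with single arrays: it was 123 higher and 261 lower without BM ST-HSC a, and 0 to 2 higher and 11 to 17 lower without any other of the 12 arrays. Without the 4 narrow arrays 40 and 54 genes were called.

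**Figure D5:**
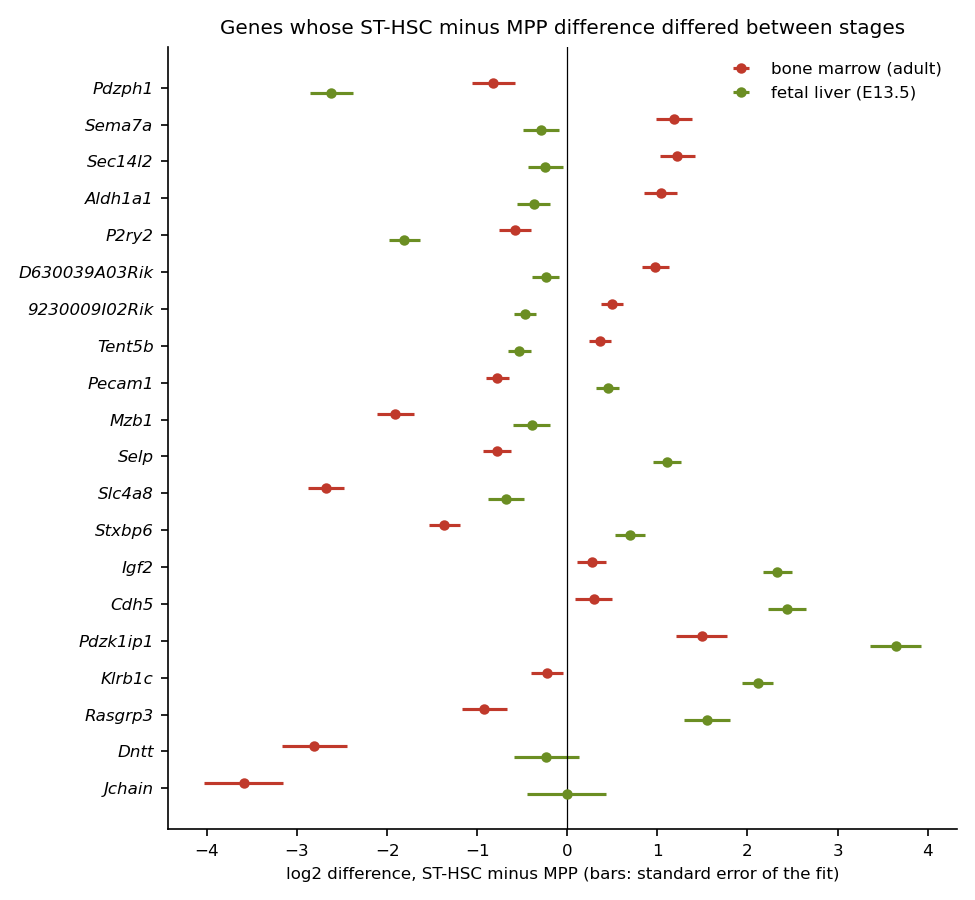
Log2 difference of ST-HSC and MPP with its standard error, for BM (red, upper point of each pair) and FL (green, lower point), in the 20 named genes whose difference passed the test between the stages, ordered by that difference. Jchain and Dntt lie near 0 in FL and far below 0 in BM, and Selp, Stxbp6 and Rasgrp3 are called on opposite sides of 0.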

How the data were processed

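The deposited values are log2 signals of 22203 probe sets on 18 Affymetrix arrays, 1 array per sample, computed by the authors with the package oligo under R 3.5.01 according to their processing notes, and per the labels. RNA was extracted with a column kit for small samples and amplified with 10 cycles of PCR, per the labels' protocols. No source used here gives the background correction, normalization or summarization. Of the probe sets, 19572 carried 1 gene symbol, all matched to the RefSeq table of GRCm38.p6 for names, and 2631 carried none or several and were left out. The brightest probe set stood for a gene, which set aside 67 and left 19505 genes.

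Means of 6 groups of 3 arrays were fitted with limma 3.58.1 in R 4.3.3 (lmFit, eBayes; 12 residual degrees of freedom), and p-values were adjusted over all genes. Precision depends on how many arrays there are and on the spread of each gene. The standard error had a median of 0.17 for BM and 0.24 for the difference between stages. Genes named are the 15 largest called differences each way with arrays that did not overlap, up to 6 members of each of 32 lists, all sort markers, members behind counts of 5 or fewer and up to 8 each way of the test between stages. Mki67, Pcna, Spi1, Cebpa, Mpo, Elane, Rag2, Pax5, Cd79a, Cd79b, Cd3e, Klf1, Gata1, Vwf, Lcn2, Cdk6, Cks2, Cdk2, Gfi1b, Dtl, Hells and Kif15 were added after their values were seen, as were the motif search and the receptor families of the closing section. The comparison and the lists were chosen with earlier results of these data known.

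The letters a, b and c are shared by the groups, and no source used here states whether they pair the arrays. Deviations from the group means correlated at -0.10, -0.18 and 0.17 between BM ST-HSC and BM MPP arrays of the same letter. Between arrays of different letters they correlated at -0.21 to 0.24. With so few arrays in a group the deviations depend on each other, and those of ST-HSC a ran against b (-0.81) and c (-0.79). These correlations therefore cannot decide whether the letters pair the arrays. Alternatives were leaving out each array, ST-HSC a alone, fits of fewer groups, a replicate block, quantile normalization, median centring, scaling to one interquartile range, that range as a covariate, array weights, a trended robust fit, leaving out the dimmest 30% of genes, other probe set rules and a fold of at least 2. Leaving out the 4 narrow arrays was added after seeing the data. It leaves ST-HSC a as the only BM ST-HSC array.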

Additional observations from a re-analysis of the deposited data

Results flagged for a closer look

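These genes had a difference between ST-HSC and MPP that itself differed between BM and FL at an adjusted p under 0.05 in limma, given as the BM difference minus the FL difference on the log2 scale. The 12 arrays behind each value are 3 per group, and no cause was tested.

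The difference was higher in BM for Pdzph1 (1.80), which fell in both stages and more in FL, for Sema7a (1.48), for the lipid transfer protein gene Sec14l2 (1.47), for Aldh1a1 (1.41), for the nucleotide receptor P2ry2 (1.23), for D630039A03Rik (1.22), for 9230009I02Rik (0.96) and for Tent5b (0.89).

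It was lower in BM for the adhesion molecule Pecam1 (-1.22), for Mzb1 (-1.51), for Selp (-1.89), for Slc4a8 (-1.99), for the syntaxin binding protein gene Stxbp6 (-2.06), for Igf2 (-2.06), for Cdh5 (-2.14), for Pdzk1ip1 (-2.15), for the NK cell receptor gene Klrb1c (-2.34), for Rasgrp3 (-2.47), an exchange factor for Ras, for Dntt (-2.58) and for Jchain (-3.59). Klrb1c was at 6.32, 6.02 and 6.41 in BM ST-HSC, against 6.56, 6.76 and 6.11 in BM MPP, and at 7.88, 7.86 and 7.66 in FL ST-HSC, against 5.81, 5.49 and 5.76 in FL MPP. Rasgrp3 was at 6.57, 6.07 and 6.27 in BM ST-HSC, against 7.48, 6.85 and 7.34 in BM MPP, and at 9.17, 9.76 and 10.03 in FL ST-HSC, against 8.32, 7.51 and 8.48 in FL MPP.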

How the results depend on the processing

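Genes higher and lower in BM ST-HSC numbered 255 and 935. Leaving out single arrays gave 56 to 1235 higher and 267 to 2209 lower, both extremes upward without ST-HSC a; ST-HSC a alone gave 39 and 30, the interquartile range as covariate 397 and 603, array weights 3238 and 4409, a fold of at least 2 gave 56 and 198, scaling to one interquartile range 563 lower, and leaving out the 4 narrow arrays 226 lower. Differences between stages (8 higher, 28 lower) ranged over 0 to 123 and 11 to 261 with single arrays left out. They were 3 and 7 with ST-HSC a alone, 76 and 194 in a fit of 12 arrays, 23 and 47 with the covariate, 1878 and 1894 with array weights, and 40 and 54 without the 4 narrow arrays. FL counts (309 and 132) were 611 and 285 in the fit of 12 arrays. With a replicate block BM gave 249 higher and 880 lower, and the stages 2 and 17. Other counts stayed within 1.5 times. The causes were not tested. Without the 4 narrow arrays, as with ST-HSC a alone, 1 ST-HSC array stood against MPP in BM, so those counts have no ST-HSC replication. Of 146 named called genes 69 kept their calls with each of the 6 arrays left out, 24 with ST-HSC a alone, 77 without the narrow arrays, 113 after scaling, 121 after quantile normalization, 129 with the block and 146 with array weights; none of the 146 reversed. Precision is limited by 3 arrays a group.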

Other observations

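Genes for smell and taste receptors, which blood cells are not known for and which were singled out after the called genes had been seen, held 18 of the 255 genes called higher in ST-HSC (7.06%), near their share of all genes tested (1460 genes, 7.49%). Of the 1460, 1.23% were called higher, against 1.31% of all genes, and 1 was called lower, and their median level over all arrays was 5.24, against 7.81 for all genes. Their median difference was 0.19, with 0.27 for ST-HSC b and c and 0.0039 for ST-HSC a. Over all genes the median difference was -0.01.

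BM LT-HSC were set beside the called genes by their group means. Since these genes were chosen for a large difference between ST-HSC and MPP, a mean of another group tends to fall between them, and the shares over all genes with the same sign are given beside the counts. Of the 255 genes higher in ST-HSC than MPP, LT-HSC lay above MPP in 243 (95.3%, against 75.7% of all genes with a higher mean) and above ST-HSC in 83 (32.5%, against 30.3%). Of the 935 genes lower in ST-HSC, LT-HSC lay below MPP in 906 (96.9%, against 77.6% of all genes with a lower mean) and above ST-HSC in 822 (87.9%, against 69.2%).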
